A study of Mus musculus with 42 samples.

Results

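Expression of 10 genes of the cell cycle and of DNA replication was followed in aorta and skeletal muscle of mice. The genes were Mki67, Top2a, Ccna2, Ccnb1, Mcm2, Mcm5, Mcm6, Mcm8, Mybl2 and Rb1, and a probe was taken when the array's annotation gave it one of these symbols. This gave 17 probes of the 34891 that carry a symbol, and 10 of 21186 genes. Single-colour Agilent mouse arrays were hybridized with total RNA from aorta and skeletal muscle, with 3 samples of each tissue in each of 7 groups and 1 array per sample, 42 arrays in all. All mice were male and 18 to 20 weeks old at the start. Healthy C57 mice formed group G, and untreated diabetic KK/Ay mice, a strain that carries the yellow agouti allele and becomes obese and diabetic, formed group A. In group C, macroangiopathy was modelled in KK/Ay mice with a high-fat diet and the nitric oxide synthase inhibitor L-NAME for 8 weeks. The same model mice were treated by gavage for 8 weeks with the herbal formula SHENQI (group B), with its component formulas yangyinyiqi (group D) and huoxue (group E), or with rosiglitazone, a PPARγ agonist (group F), and groups G, A and C received saline. Only group G was C57, so strain and disease cannot be told apart in any comparison with it.

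Cells that are about to divide load the Mcm2-7 helicase onto replication origins in G1, copy their DNA in S phase and separate it in mitosis. The genes for these steps are switched on in waves. The E2F factors, held back by the retinoblastoma protein until cyclin-dependent kinases release them, drive genes of the G1/S transition, while the MuvB complex acts through CHR elements with B-MYB and FOXM1 on genes of G2 and mitosis. Most cells of an adult aorta or skeletal muscle are out of the cycle, so transcripts of this kind are low in these tissues, and they are abundant in dividing lymphoid and other blood-forming cells. In bulk tissue, fewer cells of a type and less RNA per cell cannot be told apart.

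Promoter sequence was looked up in the RefSeq-based table for GRCm38.p6, which held 8 of the 10 genes and lacked Ccna2 and Rb1. The 4 promoters below are shown as examples of the 2 kinds of element that mark the waves of the cycle. Each run covers the 250 bases before the start of the gene, 5′ to 3′ on the gene's strand. Capitals mark a CHR element (TTTGAA or TTCGAA), an E2F element (TTGGCGC or TTCCCGC or TTCGCGC) or a CCAAT box, on either strand. An E2F match on one strand can overlap a match on the other, as in TTGGCGCGAA. Mki67 encodes the Ki-67 antigen, present in cycling cells and absent from resting ones, Top2a encodes the topoisomerase that untangles sister chromatids before mitosis, and Mcm5 and Mcm6 encode helicase subunits.
Mki67 (chr7:135716380-135716629, minus strand): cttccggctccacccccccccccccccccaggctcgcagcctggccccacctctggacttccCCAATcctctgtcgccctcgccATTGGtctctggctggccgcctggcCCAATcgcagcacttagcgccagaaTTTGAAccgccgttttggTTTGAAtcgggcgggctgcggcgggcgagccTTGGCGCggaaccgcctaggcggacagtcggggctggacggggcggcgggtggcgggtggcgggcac
Top2a (chr11:99024190-99024439, minus strand): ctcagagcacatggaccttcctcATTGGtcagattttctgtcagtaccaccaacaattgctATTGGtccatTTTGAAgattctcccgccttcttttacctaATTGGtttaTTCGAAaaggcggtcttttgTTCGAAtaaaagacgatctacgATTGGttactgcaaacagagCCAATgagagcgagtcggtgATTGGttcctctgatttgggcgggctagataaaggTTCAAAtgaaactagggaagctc
Mcm5 (chr8:75109259-75109508, plus strand): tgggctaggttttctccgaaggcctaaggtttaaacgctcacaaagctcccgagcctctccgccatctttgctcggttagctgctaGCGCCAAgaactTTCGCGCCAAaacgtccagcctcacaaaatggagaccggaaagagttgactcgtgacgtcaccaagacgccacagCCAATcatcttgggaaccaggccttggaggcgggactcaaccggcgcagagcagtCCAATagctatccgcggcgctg
Mcm6 (chr1:128359706-128359955, minus strand): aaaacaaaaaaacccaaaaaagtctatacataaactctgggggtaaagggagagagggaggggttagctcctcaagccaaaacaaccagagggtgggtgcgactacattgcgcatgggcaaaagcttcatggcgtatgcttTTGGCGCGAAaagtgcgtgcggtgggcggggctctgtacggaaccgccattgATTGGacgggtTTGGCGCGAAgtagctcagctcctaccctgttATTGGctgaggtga
Counts were taken over 300 bases, from 250 before to 50 after the start. The Top2a window held 4 CHR elements, 6 CCAAT boxes and no E2F element. In the Mcm6 window there were 5 E2F matches, 2 CCAAT boxes and no CHR element. That of Mcm5 held 3 E2F matches and 3 CCAAT boxes, and that of Mki67 held 2 CHR elements, 1 E2F match and 3 CCAAT boxes. The elements did not sort the studied genes by wave. The window of Ccnb1, a mitotic cyclin, held 1 E2F match and no CHR element. The window of Mcm2, a helicase gene, held 1 CHR element and no E2F match. Of the 8 promoters of the studied genes, 5 held an E2F match (62.5%), against 8.07% of all 32851 promoters of that length, 3 held a CHR element (37.5% against 19.2%) and 7 held a CCAAT box (87.5% against 37.4%). The Mybl2 window held none of these letters, which says nothing about the factors themselves.

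Of the 3 Top2a probes, both that span an intron in the mm9 annotation of the array, and so match only spliced RNA as a whole, gave a signal on some arrays. They read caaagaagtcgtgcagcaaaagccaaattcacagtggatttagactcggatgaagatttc (chr11:98857244-98858058, mm9, minus strand) and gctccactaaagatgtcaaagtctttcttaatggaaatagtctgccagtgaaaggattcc (chr11:98876361-98877388, mm9, minus strand). The first was well above background on 17 of 21 aorta and 4 of 21 muscle arrays, the other on 6 and 2, and the remaining Top2a probe on 0 of 42.

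The arrays were checked against markers of their tissues before any group was compared. All 6 smooth muscle markers were well above background on every aorta array. Their mean log2 intensity was 12.1 to 14.2 on 20 of them and 9.52 on healthy aorta 1, so this array stood apart. The skeletal muscle markers averaged 15.8 to 16.5 in muscle, but they spanned 7.10 to 15.1 in aorta. The 15.1 was that of a diabetic aorta, close to the lowest muscle array, so this array stood apart too. Within diabetic aorta the level spanned 9.35 to 15.1. Its weight in the comparisons with group A was read only by leaving out single arrays. The 12 B and T cell markers (6 for each lineage) were all well above background on 6 aorta arrays: healthy 1, macroangiopathy 3, SHENQI 2, yangyinyiqi 2, huoxue 2 and rosiglitazone 1. Their mean log2 level on these 6 arrays was 8.69 to 10.25, and it was 6.16 to 7.91 on the other 15 aorta arrays and 5.80 to 7.67 in muscle. The main differences between groups are given below with and without healthy aorta 1 and the lymphocyte level. Both tissues were collected from the mice of a group, and the labels do not tie an aorta to a muscle, so the 6 arrays of a group may come from 3 mice. Fits over both tissues count 6 samples and their p-values may then be too small, and all p-values measure only the spread between these samples.

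All values below are normalized log2 intensities. The level of a gene is comparable between arrays, but not with that of another gene, since probes differ in brightness. Where groups are said below not to overlap, the share of all genes that do the same was not counted. Such statements describe the values only. Mki67 was well above background on 21 of 21 aorta arrays and on 16 of 21 muscle arrays. Its log2 level in healthy aorta was 11.59, 6.92 and 7.69, in diabetic aorta 7.81, 7.39 and 7.31, and in macroangiopathy aorta 7.50, 7.29 and 8.84. Healthy aorta 1 was far above every other array, and the remaining 2 healthy values lay within or below the range of the disease groups. In the treated aortas Mki67 was 7.10, 9.78 and 7.00 after SHENQI, 7.38, 8.91 and 7.41 after yangyinyiqi, 8.08, 9.44 and 6.89 after huoxue, and 8.99, 7.61 and 7.58 after rosiglitazone. Each of these groups held 1 aorta that was clearly above the other two, and it was the array with the high lymphocyte level. In muscle, Mki67 was 9.72, 7.05 and 8.67 in healthy mice, 6.19, 7.47 and 6.22 in diabetic mice and 6.56, 7.65 and 6.24 in macroangiopathy mice. The healthy muscle range overlapped both disease ranges through healthy muscle 2. The 12 treated muscles lay between 5.87 and 6.81.

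**Figure D1:**
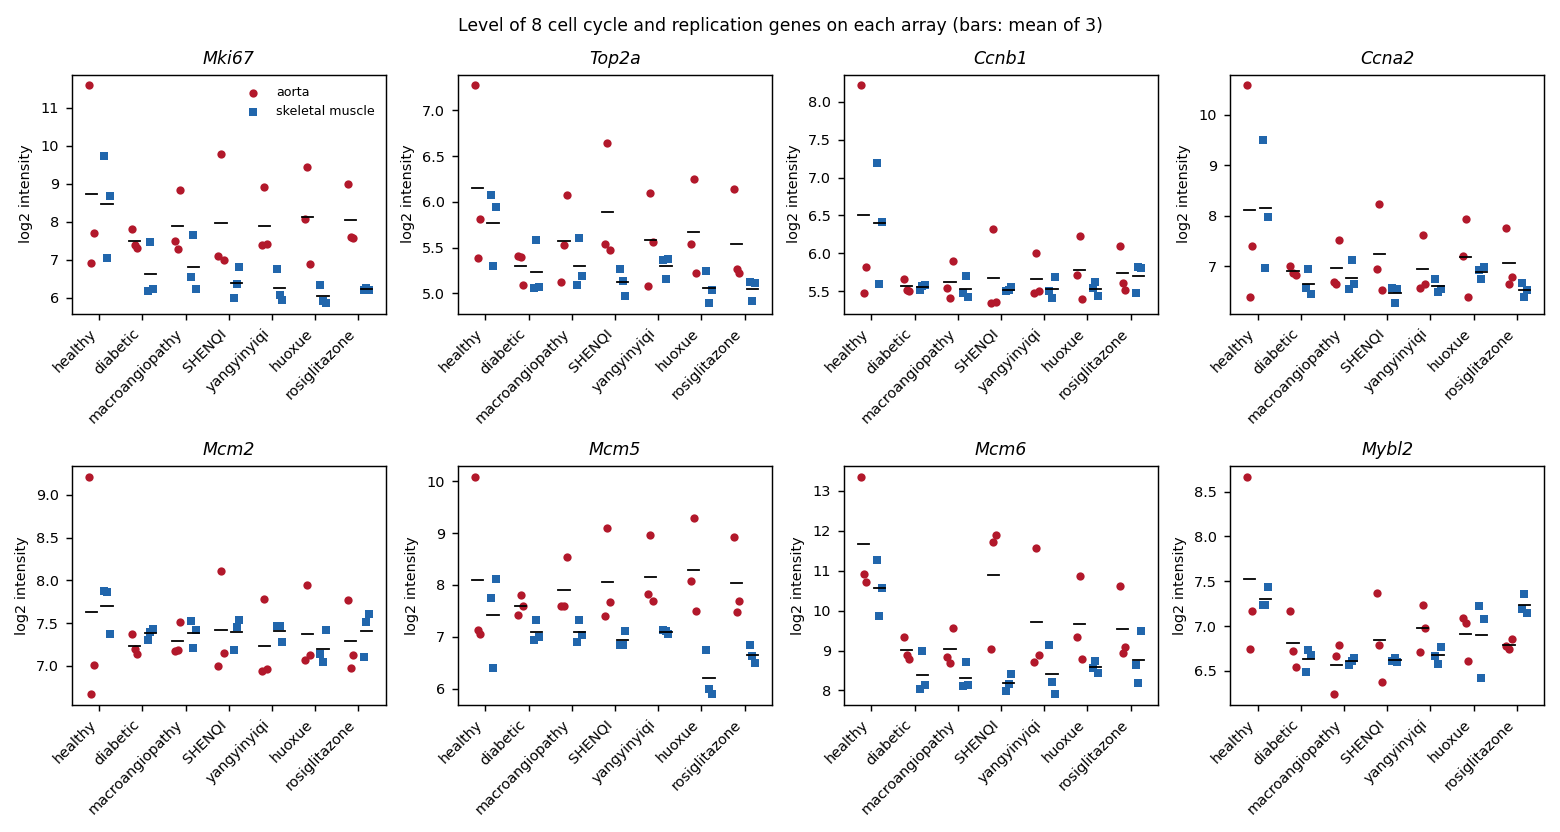
Log2 intensity (y axis) of 8 of the genes in the 7 groups (x axis), with 1 point per array, red circles for aorta, blue squares for skeletal muscle and bars for the mean of 3 arrays. In healthy aorta, 1 array lies far above the other two for Mki67 and Ccna2, whereas all 3 healthy arrays of each tissue lie above the diabetic and macroangiopathy arrays for Mcm6.

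Mcm6, a subunit of the replicative helicase, was well above background on all 42 arrays. In aorta its log2 level was 13.36, 10.92 and 10.73 in healthy mice, 9.35, 8.90 and 8.78 in diabetic mice and 8.83, 8.70 and 9.57 in macroangiopathy mice. Muscle gave 11.27, 9.86 and 10.56 in healthy mice, 8.04, 8.98 and 8.14 in diabetic mice and 8.12, 8.71 and 8.13 in macroangiopathy mice. In both tissues all 3 healthy arrays were above all 6 untreated KK/Ay arrays, with no overlap. After treatment, aorta gave 9.03, 11.71 and 11.90 with SHENQI, 8.70, 11.58 and 8.88 with yangyinyiqi, 9.34, 10.87 and 8.79 with huoxue and 10.61, 8.94 and 9.09 with rosiglitazone. SHENQI aorta 3 was high in Mcm6 although its Mki67 was 7.00 and its lymphocyte level 6.53. The 12 treated muscles spanned 7.91 to 9.50, all below healthy muscle.

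Ccna2, cyclin A2, which drives S phase and entry into mitosis, was well above background on all arrays. Its log2 level was 10.58, 6.39 and 7.39 in healthy aorta, 7.00, 6.87 and 6.82 in diabetic aorta and 6.69, 6.65 and 7.52 in macroangiopathy aorta. Healthy muscle gave 9.50, 6.95 and 7.96, diabetic muscle 6.56, 6.94 and 6.45, and macroangiopathy muscle 6.54, 7.12 and 6.65. Healthy and diabetic muscle did not overlap for Ccna2, although healthy muscle 2 and diabetic muscle 2 nearly met, whereas healthy aorta held both the highest and the lowest value of the 3 groups. Ccnb1, cyclin B1, the partner of CDK1 at mitosis, was well above background on only 8 aorta and 2 muscle arrays. Its healthy aorta values were 8.22, 5.47 and 5.82. Ccnb1 was not well above background on any diabetic array, so healthy over diabetic was at least 1.79-fold in muscle, where 2 of 3 healthy arrays were above background. The same bound was 1.92-fold in aorta, but it rested on healthy aorta 1, without which neither group was above background and no fold can be given. Each bound is the mean of the healthy arrays over the higher of the detection level and the probe's own signal on the diabetic arrays.

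Mybl2, which encodes the MuvB partner B-MYB, spanned 6.24 to 8.67 in aorta, a 5.38-fold range, and 6.42 to 7.44 in muscle. In muscle it was 7.24, 7.24 and 7.44 in healthy mice, 6.48, 6.73 and 6.68 in diabetic mice and 6.57, 6.61 and 6.65 in macroangiopathy mice, and the healthy values did not overlap the others. Mcm2, a helicase subunit, spanned 6.67 to 9.21 in aorta and 7.04 to 7.88 in muscle, and Mcm5 7.06 to 10.09 and 5.89 to 8.11. The narrowest ranges in aorta belonged to Mcm8 and Rb1. Mcm8, which forms a separate helicase with Mcm9 that works in repair by homologous recombination, spanned 1.60-fold in aorta and 1.56-fold in muscle. Its level is the mean of 2 probes, 1 well above background on 21 aorta and 21 muscle arrays and the other on 18 and 6. Rb1, the retinoblastoma protein itself, spanned 1.5-fold and 1.99-fold. It was well above background on all 42 arrays through 1 probe, while its other probe was so on 16 aorta and 2 muscle arrays.

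Healthy aorta 1 carried the highest aorta value of 8 of the 8 genes other than Mcm8 and Rb1 within its group. Set against the mean of the other healthy aortas, it was 19.4-fold higher for Mki67, 12.9-fold for Ccna2, 7.95-fold for Mcm5, 5.94-fold for Ccnb1, 5.79-fold for Mcm6 and 1.22-fold for Mcm8. Macroangiopathy 3 and yangyinyiqi 2 were likewise the highest aorta of their group for 8 of the 8 genes, diabetic 1, huoxue 2 and rosiglitazone 1 for 7, and SHENQI 2 for 6. Over the 21 aorta arrays, the correlation with the mean log2 level of the 12 lymphocyte markers was 0.93 for Mki67, 0.89 for Top2a and for Mcm5, 0.86 for Mcm2, 0.84 for Ccna2, 0.79 for Ccnb1, 0.71 for Mcm6 and 0.55 for Mybl2. It was 0.09 for Mcm8 and −0.04 for Rb1. Without healthy aorta 1 it was 0.97 for Mki67 and for Ccnb1, 0.94 for Ccna2, 0.62 for Mcm6 and 0.37 for Mybl2. In muscle, r for Mki67 was 0.71 over 21 arrays and 0.34 without healthy muscle 1. Other marker lists followed some genes as closely or more closely. In aorta, r for Ccnb1 was −0.85 with fibroblast and −0.81 with smooth muscle markers. With smooth muscle markers it was −0.75 for Mybl2 and −0.73 for Mcm8, but −0.68 for Mki67, weaker than with lymphocyte markers. In muscle, r for Mcm6 was 0.80 with macrophage and 0.60 with lymphocyte markers. All these correlations describe arrays that share slides and group differences, and the part of lymphoid or other cells in the levels was not tested.

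**Figure D2:**
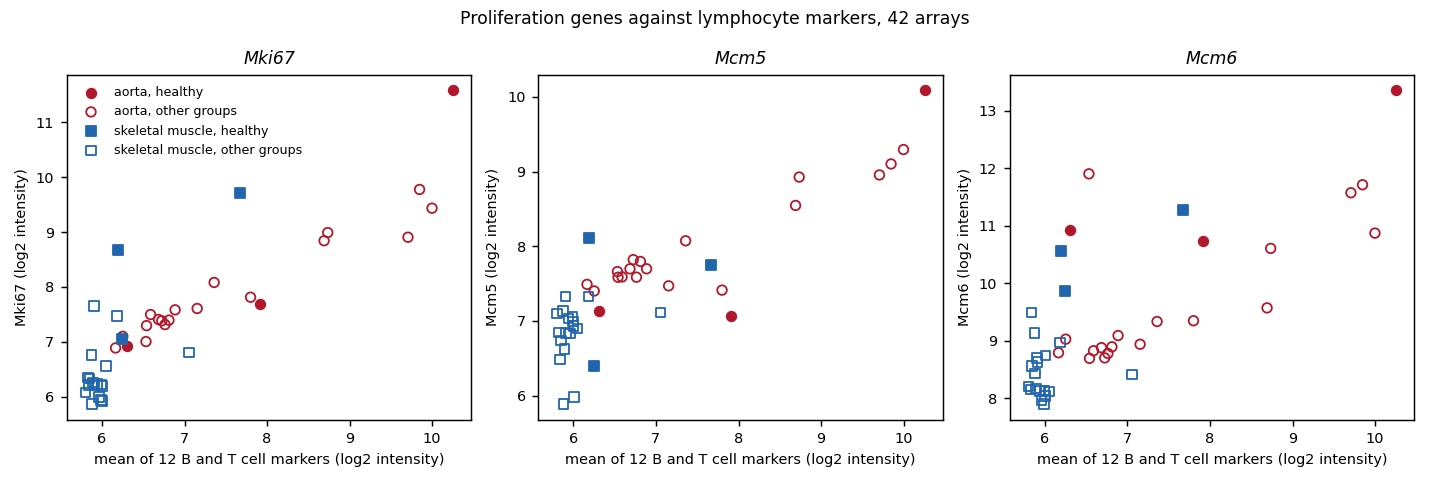
Log2 intensity of Mki67, Mcm5 and Mcm6 (y axis) against the mean log2 intensity of 12 B and T cell markers (x axis) on the 42 arrays, red circles for aorta and blue squares for skeletal muscle, with healthy arrays filled. Aorta points rise together for Mki67 (r = 0.93), while in Mcm6 (r = 0.71) the healthy arrays lie above most others at the same marker level.

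The first comparison, A vs G, set diabetic against healthy mice and was fitted in limma over both tissues with a tissue term. Of the 8 genes tested, 4 fell at an unadjusted P below 0.05. That rule called 22.0% of the 14858 genes tested, 9.31% in the downward direction. Mcm6 fell by 2.42 on the log2 scale (SE 0.42, 95% interval −3.34 to −1.5, n = 6 per group), 5.35-fold lower in diabetic mice, with a limma adjusted P = 0.0088, and was the only one past the adjusted threshold of 0.05, which called 4.48% of genes. The others passed only the unadjusted threshold: Ccna2 fell by 1.36 (SE 0.61, limma adjusted P = 0.22), Mybl2 by 0.69 (SE 0.27, adjusted P = 0.16) and Mcm8 by 0.30 (SE 0.11, adjusted P = 0.14). None of these 3 passed with scan day or with the lymphocyte level as a term. Slide as a fixed block rested on 1 diabetic aorta against the 2 healthy aortas of slide 1. Over these fits Mybl2 was between −0.75 and −0.34 and Mcm8 between −0.30 and −0.21. Mki67 differed by −1.54 (SE 0.71), with a limma adjusted P = 0.23, and its 95% interval of −3.08 to 0.01 just reached 0. Its 2 probes, fitted singly, gave −1.67 and −1.40, and each passed the unadjusted threshold. Differences for Mcm2 (−0.36), Mcm5 (−0.42) and Rb1 (−0.08) did not pass. Top2a and Ccnb1 were not tested, since no set in this comparison had either above background on all of its 3 arrays.

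The fall of Mcm6 was close in both tissues, −2.66 in aorta (limma adjusted P = 0.055) and −2.18 in muscle (adjusted P = 0.14), and the 2 estimates differed by −0.48 (adjusted P = 0.97). In the tissue fits 16.9% of genes in aorta and 12.7% in muscle were called. Mcm6 was the only studied gene with an unadjusted limma P below 0.05 in either. When the 6 muscle arrays were fitted alone, Mki67 (−1.85), Ccna2 (−1.49), Mcm6 (−2.18) and Mybl2 (−0.67) fell past the unadjusted threshold, which called 21.2% of genes, and Mcm6 past the adjusted one (limma adjusted P = 0.040, 3.55% called). Healthy aorta 1 bore on these results unequally. Without it Mcm6 still fell by 2.02 (limma adjusted P = 0.0014), whereas Ccna2 differed by −0.83 (adjusted P = 0.31) and Mki67 by −0.94 (adjusted P = 0.34), past neither threshold. The loss of the Ccna2 call was not particular to this array. Ccna2 also lost it without healthy muscle 1 (−1.04), without healthy muscle 3 and without any single diabetic array. The same held for a background offset of 50, the scanner's processed signal, quantile normalization within tissue and slide as a random block. With the mean of the 12 lymphocyte markers as a term, the Mcm6 difference was −1.86 (limma adjusted P = 0.0030), that of Mki67 −0.57 (adjusted P = 0.51) and that of Ccna2 −0.48 (adjusted P = 0.42). The 6 macrophage markers, all well above background on each of these muscle arrays, were also higher in healthy muscle, with a mean of 8.48 to 9.69 against 8.02 to 8.14 in diabetic and 7.91 to 8.04 in macroangiopathy muscle on the log2 scale. Adipocyte markers, of which 5 or 6 of 6 were above background, were at 10.52 to 11.94 in healthy and 9.77 to 10.42 in diabetic muscle. Erythroid markers (3 to 5 above background) were at 8.01 to 8.40 in healthy and 7.64 to 7.83 in diabetic muscle. In macroangiopathy muscle both lists overlapped the healthy range, with adipocyte markers at 9.33 to 10.81 and erythroid markers at 7.88 to 8.03. Brown adipocyte markers went the other way, at 10.48 to 10.94 in healthy muscle. They were at 11.12 to 12.23 in diabetic and 11.025 to 11.79 in macroangiopathy muscle. The part of these cell types in the result was not tested.

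Slides and scan days were shared only in part by these groups. On slide 1, which held 1 diabetic and 2 healthy aortas, Mcm6 differed by −2.69 and Mki67 by −1.83. On the scan day that held 2 diabetic and 1 healthy aorta, Mcm6 differed by −2.08, but Mki67 and Ccna2 turned direction, at 0.43 and 0.45. With scan day as a term, Mcm6 was at −2.39 (limma adjusted P = 0.13) and still passed the unadjusted threshold. In muscle no slide and no scan day held healthy mice together with groups A or C, so slide and group cannot be told apart there.

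The comparison of macroangiopathy with healthy mice (C vs G) used the same 6 healthy arrays. In it, 3 of the 9 genes tested fell, where 24.3% of 15771 genes were called and 9.53% downward. Mcm6 fell by 2.44 (SE 0.42), 5.43-fold lower in macroangiopathy mice (limma adjusted P = 0.0093, a threshold that called 5.19% of genes). The difference was −2.64 in aorta (limma adjusted P = 0.035, 6.15% called) and −2.24 in muscle (adjusted P = 0.13), where the unadjusted threshold, which it passed, called 24.2% and 13.9% of genes. Mcm8 fell by 0.36 (limma adjusted P = 0.065) and Mybl2 by 0.83 (adjusted P = 0.090). With scan day as a term they were at −0.32 and −0.18, in a fit where healthy aorta 2 was the only healthy aorta scanned on a day with group C. With the term for slides 1, 3 and 11, Mybl2 was at −0.45 and did not pass. For Mcm8 the log2 level was 7.07, 6.78 and 6.78 in healthy aorta and 6.49, 6.45 and 6.43 in macroangiopathy aorta, so the groups did not overlap in spite of the small difference. Its 2 probes, fitted singly over both tissues, gave −0.51 for the brighter and −0.21 for the dimmer. Mki67 (−1.26), Ccna2 (−1.27) and Top2a (−0.53) passed neither threshold in limma. Without healthy aorta 1 the Mcm6 difference was −2.04 (adjusted P = 0.0019), and with the lymphocyte term −1.96 (adjusted P = 0.0024). With scan day as a term, the fit rested on 1 healthy aorta (healthy aorta 2) against the 3 macroangiopathy aortas scanned that day. No muscle comparison entered it, so only sizes are given, −1.89 for Mcm6 and 0.96 for Mki67.

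Diet and L-NAME on the KK/Ay background (C vs A) gave no call among the 9 genes tested in limma, where 5.14% of 15753 genes, 809 in number, had an unadjusted P below 0.05 and 0 an adjusted one. The interval of the difference was −0.47 to 0.42 for Mcm6 and −0.44 to 1.0 for Mki67. The Mki67 interval was the wider one, so less could be told of that gene.

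A wider list of 101 cell cycle genes, in 6 groups by role, was read in the same fits. In A vs G, 26 of the 80 tested fell and 1, Cdkn2b (0.63), rose at the unadjusted threshold in limma, with a median log2 difference of −0.35 against 0.03 over all genes tested, of which 22.0% were called and 9.31% fell. By role, 12 of 21 mitosis genes fell, 4 of 12 helicase and licensing genes, 3 of 15 E2F, pocket protein and MuvB regulators, 2 of 17 replication fork and nucleotide supply genes, 2 of 9 G1 cyclins and kinases, and 3 of 6 CDK inhibitors, of which 1 more rose. The count of genes called was between 10 and 33 when a single array was left out, lowest without healthy muscle 1 and highest without healthy aorta 2, with 18 without healthy aorta 1. It was 7 with scan day and 12 with the lymphocyte level as a term. The share of all genes called in these further fits is not given. Genes that passed the adjusted threshold were Pttg1, Gmnn and Cdkn1a. Pttg1, securin, which holds back the protease that parts sister chromatids, fell by 4.24 (SE 0.25, limma adjusted P = 3.9e-06). Gmnn, geminin, the inhibitor of origin licensing, fell by 2.89 (SE 0.21, adjusted P = 2.5e-05). Cdkn1a, the CDK inhibitor p21, which restrains the cycle, fell by 3.03 (SE 0.32, adjusted P = 0.00036), so genes of opposite roles moved one way.

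The log2 level of Pttg1 was 12.50, 12.84 and 12.96 in healthy aorta and 9.35, 9.0 and 9.23 in diabetic aorta, and 13.69, 13.82 and 12.89 in healthy muscle against 8.59, 8.71 and 8.37 in diabetic muscle. Here healthy aorta 1 was the lowest healthy aorta. Among the treated muscles, SHENQI muscle 2 was at 12.97, within the healthy range, while the other SHENQI muscles were at 8.37 and 8.60. Gmnn was 11.75, 10.93 and 10.46 in healthy aorta against 8.41, 7.85 and 7.80 in diabetic aorta, and Cdkn1a 11.13, 11.51 and 11.77 against 7.75, 7.90 and 7.70. None of the 3 overlapped between healthy and diabetic mice in either tissue. They were named by their adjusted P on these same arrays, so the lack of overlap adds no support. In C vs G 19 of 88 genes of the list fell and 2 rose (Cdkn2b by 0.52 and Cdkn2d by 0.86), with a median of −0.32 against 0.03 and 24.3% of all genes called. The count of 21 was 20 without healthy aorta 1, in a fit whose share over all genes is not given. With scan day as a term the comparison rested on healthy aorta 2 alone, so no count is given for it. For Cdkn2d the 4 healthy arrays on slides 1 and 3 were at 7.86 to 8.08, and the other 2, at 8.96 and 9.32, lay close to the macroangiopathy arrays at 9.03 to 9.42. Pttg1 (−4.07), Cdkn1a (−2.83), Gmnn (−2.46) and E2f7 (−0.56), a repressor of E2F targets, led the 5 with a limma adjusted P below 0.05, and the fifth, Orc6 (−0.72), is named although it lies past the limit of 4 per comparison. E2f7 was not above background on any macroangiopathy muscle array, nor on 2 of the 6 healthy arrays. Cdkn2b, the CDK4/6 inhibitor p15, rose in muscle in both comparisons, by 1.13 in A vs G (limma adjusted P = 0.0079, 1.44% called) and by 1.01 in C vs G (adjusted P = 0.014, 1.55% called).

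**Figure D3:**
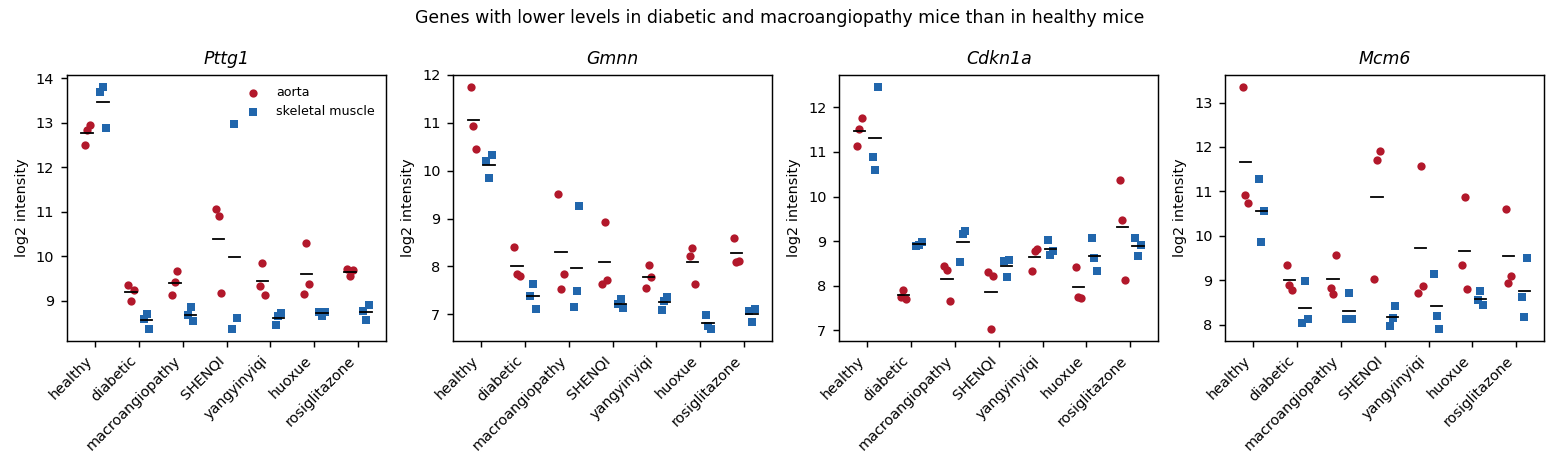
Log2 intensity (y axis) of Pttg1, Gmnn, Cdkn1a and Mcm6 in the 7 groups (x axis), with 1 point per array, red circles for aorta, blue squares for skeletal muscle and bars for the mean of 3. Healthy arrays lie above the diabetic arrays in both tissues for all 4 genes, and SHENQI muscle 2 lies at 12.97 for Pttg1.

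Treatment was compared with the untreated macroangiopathy mice of group C, whose arrays serve all 4 comparisons. In SHENQI against macroangiopathy mice (B vs C), 0 of the 9 genes tested had an unadjusted limma P below 0.05 over both tissues, where 2.73% of 15688 genes did. In aorta alone, where 4.67% were called, Mcm6 rose by 1.85 and Mcm8 by 0.29 past the unadjusted threshold (limma adjusted P = 0.98 for each), which neither passed when the aorta arrays were fitted alone (adjusted P = 1.0 for each). The log2 level of Mcm8 was 6.87, 6.75 and 6.62 in SHENQI aorta against 6.49, 6.45 and 6.43, with no overlap, while for Mcm6 SHENQI aorta 1, at 9.03, lay below macroangiopathy aorta 3, at 9.57. Mcm6 in aorta was at 1.43 without SHENQI aorta 2 (limma adjusted P = 0.51) and at 1.34 without SHENQI aorta 3 (adjusted P = 0.49), past the threshold in neither, and at 2.78 without SHENQI aorta 1 (adjusted P = 0.034). The Mcm6 difference was larger in aorta than in muscle by 1.99, past the unadjusted threshold, which called 1.90% of genes (limma adjusted P = 1.0). Yangyinyiqi (D vs C) gave 0 calls of 9 over both tissues, where 3.42% of genes were called. By tissue, Mybl2 rose in aorta by 0.41 (3.93% of genes called) and Mcm8 in muscle by 0.21 (1.81% called), past the unadjusted threshold of limma with an adjusted P = 1.0 for each.

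In huoxue against macroangiopathy mice (E vs C), Rb1 rose by 0.20 (limma adjusted P = 0.30), the only one past the unadjusted threshold, where 14.3% of 15755 genes were. The direction turned in the authors' table, to −0.14 over both tissues and −0.46 in muscle, and the call was lost with the processed signal and when any of 6 single arrays was left out. In the comparison of rosiglitazone with macroangiopathy mice (F vs C), which called 12% of 15870 genes, Mybl2 rose by 0.42 (SE 0.11, limma adjusted P = 0.17) and Rb1 by 0.20 (adjusted P = 0.31), past the unadjusted threshold. For Rb1 the probes disagreed. The probe detected on every array gave 0.36 in F vs C and 0.43 in E vs C, and the dim probe gave 0.05 and −0.04. The rise of Mybl2 lay in muscle, at 0.62 with a limma adjusted P of 0.032, where that threshold called 3.50% of genes. Its log2 level was 7.19, 7.36 and 7.14 in rosiglitazone muscle and 6.57, 6.61 and 6.65 in macroangiopathy muscle. The rosiglitazone muscles were on slides 3 and 11 and all huoxue muscles on slide 11, and neither slide held a macroangiopathy array. Slide and treatment thus cannot be told apart in these muscle comparisons. A shared term for slides 1, 3 and 11 is estimated only from sets with arrays both on and off these slides. Those were healthy aorta and muscle, diabetic aorta and SHENQI aorta, and none had an array on slide 11. Values with this term therefore do not measure slide 11. With a term for slides 1, 3 and 11 over all 42 arrays, Mybl2 in muscle was at 0.05 (limma adjusted P = 1.0). That value cannot decide the part of slide, since the term rests largely on aortas of slide 1. The only muscle set in it, healthy muscle, was at 7.24 and 7.24 on slide 3 and at 7.44 off it. The 1 rosiglitazone muscle scanned on the day of the macroangiopathy muscles differed from them by 0.59. The part of slide in the rise of Mybl2 was not tested.

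Of the wider list, over both tissues, 0 of 87 genes were called in B vs C, 3 of 90 rose in D vs C, 9 rose and 2 fell of 88 in E vs C, and 9 rose and 3 fell of 88 in F vs C. The share called was 12.5% against 14.3% of all genes for E, and 13.6% against 12% for F. Those that rose in D vs C were Lin52 (0.24), Pcna (0.31) and E2f7 (0.20), and those that fell were Cdkn2d and E2f1 in E vs C and Cdkn2d, Lig1 and E2f1 in F vs C, all named after their values were seen. Cdkn2d, the CDK4/6 inhibitor p19, fell in huoxue muscle by 1.98 and in rosiglitazone muscle by 1.59, past a limma adjusted P of 0.05 that called 10.6% and 3.50% of genes. Its log2 level was 9.07, 9.24 and 9.42 in macroangiopathy muscle, 6.75, 7.51 and 7.54 in huoxue muscle and 7.89, 7.38 and 7.69 in rosiglitazone muscle. Healthy muscles 1 and 2, also on slide 3, were at 7.96 and 8.08, and healthy muscle 3, on another slide, at 9.32. With the slide term the differences were −0.38 for huoxue (limma adjusted P = 1.0) and 0.00093 for rosiglitazone. Lig1, the ligase that joins Okazaki fragments, fell by 0.60 in huoxue and by 0.59 in rosiglitazone muscle, and with the slide term it was at 0.16 and 0.17. E2f7 differed by 0.46 in rosiglitazone muscle and by 0.66 with the slide term (limma adjusted P = 0.13), but it was not well above background on any of the 6 arrays, so both readings are at background. Orc2 (0.41), of the origin recognition complex, and Rfc4 (0.47), of the clamp loader, rose in huoxue muscle, and with the slide term they were at −0.10 and 0.03. As said above, that term rests largely on aortas and holds no estimate for the slide of the huoxue muscles. The part of slide in these differences was therefore not tested.

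**Figure D4:**
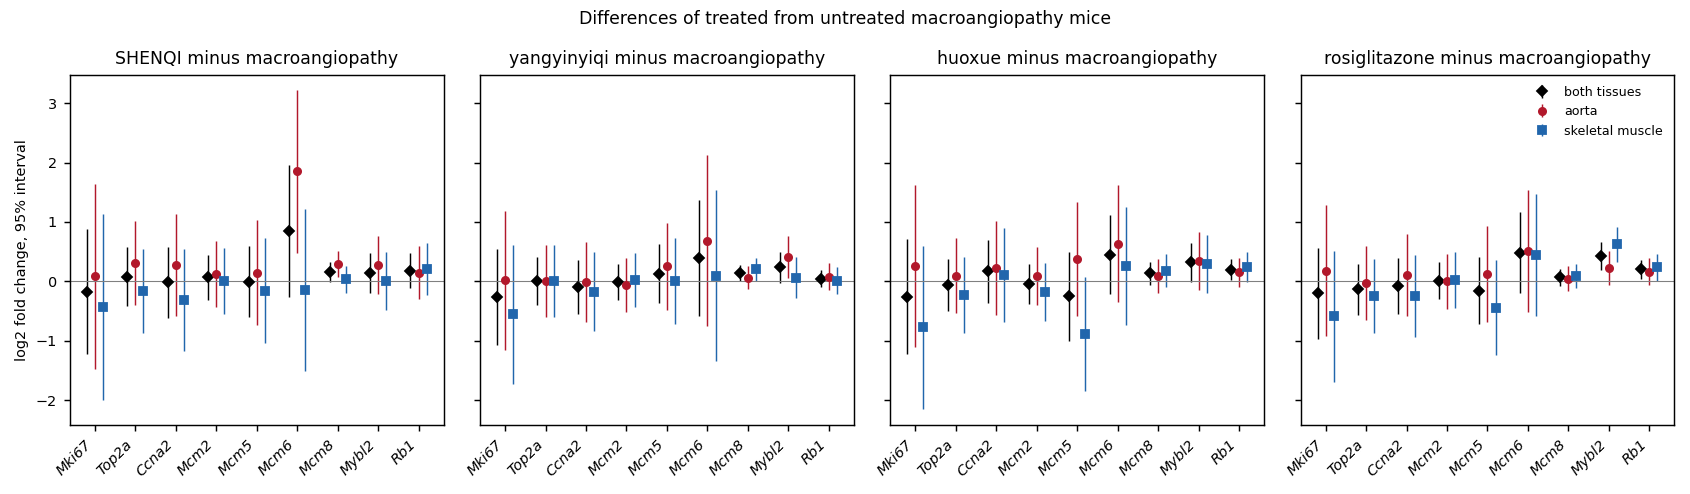
Log2 fold change (y axis, with its 95% interval) of each gene tested (x axis) for the 4 treatments, each minus macroangiopathy. Black diamonds are for both tissues, red circles for aorta and blue squares for skeletal muscle. In the SHENQI panel Mcm6 in aorta lies at 1.85, and in the rosiglitazone panel Mybl2 in muscle lies at 0.62.

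Between the tissues, over all 42 arrays with a term for group, 5 of the 9 genes tested differed at a limma adjusted P below 0.05, a rule that called 76.4% of 16209 genes. Mki67 was higher in aorta by 1.33 (SE 0.30, limma adjusted P = 0.00016), Mcm6 by 1.19 (adjusted P = 0.00014) and Mcm5 by 1.09 (adjusted P = 1.7e-05). For Top2a the fitted difference was 0.41 (adjusted P = 0.0044), but it was above background on 17 aorta and only 4 muscle arrays, so its size is not known. Mcm8 was lower in aorta by a log2 difference of −0.17 (adjusted P = 0.0015). Ccna2 (0.34), Mcm2 (−0.06), Mybl2 (0.07) and Rb1 (0.02) did not pass. Only slide 4 held both tissues, so tissue and slide can hardly be told apart: with slide as a fixed block none of the 5 passed, and Mki67 was at −0.38, Mcm6 at −0.14, Mcm5 at 0.06, Top2a at −0.03 and Mcm8 at 0.10. Without the 6 aortas whose lymphocyte markers were all detected, the differences were 0.71 for Mki67, 0.67 for Mcm6, 0.63 for Mcm5 and 0.12 for Top2a (adjusted P = 0.17), and Mcm2 was lower in aorta at −0.34 (adjusted P = 4.8e-05). With the lymphocyte level as a term, Mki67 was at 0.12 (limma adjusted P = 0.63), Mcm6 at 0.30 (adjusted P = 0.27) and Mcm5 at 0.30 (adjusted P = 0.11). In that fit Top2a was at −0.09, and Ccna2 (−0.50, adjusted P = 0.0092) and Mcm2 (−0.57, adjusted P = 5.8e-06) were lower in aorta. Of the wider list, 41 of 91 genes were higher and 21 lower in aorta. At the adjusted threshold 40.2% of all genes were higher and 36.3% lower, so no tilt of the list towards aorta is read from these counts.

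Within aorta the correlation with Mki67 over 21 arrays was 0.96 for Ccna2, 0.95 for Mcm2, 0.94 for Mcm5 and for Ccnb1, 0.93 for Top2a, 0.71 for Mcm6, 0.69 for Mybl2, 0.28 for Mcm8 and −0.11 for Rb1. In muscle it was 0.89 for Ccna2 and Top2a, 0.85 for Ccnb1 and Mcm6, 0.73 for Mcm5, 0.46 for Mcm2, 0.39 for Mybl2, 0.33 for Mcm8 and −0.13 for Rb1. Without healthy array 1 of the tissue, r in aorta was 0.52 for Mcm6, 0.29 for Mybl2 and −0.23 for Mcm8, and in muscle 0.17 for Mcm2, −0.20 for Mcm8 and 0.25 for Rb1. The genes most like Mki67 among 15588 in aorta were A530032D15Rik, Ccnb2, Hist1h2ao, Hist1h2af, 2810417H13Rik, Ebi3, Samsn1 and Cenpe, each with r = 0.98. Ccnb2 is a mitotic cyclin, Cenpe a kinetochore motor, and the Hist1h2a genes encode histone H2A. Among 13856 genes in muscle they were Birc5, Hist1h2ao, Hist1h2ab, Cks2, Ccnb2, Hist1h2af, Sec14l2 and Stmn1, with r of 0.95 to 0.98. The median r with Mki67 over the wider list was 0.71 in aorta (88 genes) and 0.37 in muscle (72 genes), and −0.15 in both over all genes. Short probes may not tell the near-identical histone genes apart, so those symbols are uncertain.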

How the data were processed

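The authors hybridized Cy3-labelled total RNA to 42 arrays on 11 slides, scanned on 4 days, and deposited the Feature Extraction 10.7.3.1 output (10.7 per the labels), with spot intensities and marks for spots well above background, annotated on mm9. Of the files, 8 hold all columns and 34 a shorter set without the mean intensity, so the deposited median intensity of spot and local background was used instead of the planned mean. A further deposited table, of log2 values, served as an alternative for 41174 probes. Its scale and centring are not stated in the sources used here, each column has a median of 5.36, and its rank correlation with the values used was 0.954 or more.

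In R 4.3.3 with limma 3.58.1 and data.table (version 1.17.8), the 1639 control spots of 45018 were left out, and intensities were background corrected (normexp, offset 0), quantile normalized over 42 arrays and set on the log2 scale. Spots were averaged per probe and probes per gene symbol. A gene was tested where the scanner marked it above background on each of the 3 arrays of any set compared. Comparisons between groups used lmFit and eBayes on 12 arrays with a tissue term, or means per group and tissue. Thresholds were an unadjusted P below 0.05, as in the study's methods, and a Benjamini-Hochberg adjusted P below 0.05. Between 53.9% and 77.7% of probes were well above background per array, and the number of arrays limits the precision. Fits were tested on simulated data.

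Genes and lists were chosen with earlier results of these data known. All 10 genes are named, with those of the wider list that passed the adjusted threshold, at most 4 per comparison in order of adjusted P, and the 8 genes most correlated with Mki67 per tissue among those well above background on at least 11 of 21 arrays. Terms for scan day, the lymphocyte markers and slides 1, 3 and 11 were chosen after seeing the data, as was leaving out the 6 aorta arrays. Same-numbered arrays of compared groups did not deviate together consistently (correlations from −0.55 to 0.60). Some pairs did, such as muscle 2 in C vs A (0.60) and aorta 1 in E vs C (0.57). The numbers were read as names.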

Additional observations from a re-analysis of the deposited data

Results flagged for a closer look

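The aorta and muscle log2 fold changes were compared for each gene by the interaction term of the fit. Over all genes, this test had an unadjusted limma P below 0.05 for 1.85% (D vs C) to 17.5% (E vs C) of genes, and for 1.90% in B vs C. Of 62 such tests on the 10 genes, 1 had an unadjusted limma P below 0.05, that of Mcm6 in B vs C, where the aorta difference exceeded that in muscle by 1.99 (adjusted P = 1.0). In the wider list, Pttg1 fell less in aorta than in muscle, with a difference of 1.34 in A vs G (limma adjusted P = 0.38) and 1.41 in C vs G (adjusted P = 0.16), while Cdkn1a fell more in aorta in A vs G (−1.30, adjusted P = 0.68). Cdkn2b differed between the tissues by −0.99 in A vs G (limma adjusted P = 0.33) and −0.97 in C vs G (adjusted P = 0.14). Each of these passed the unadjusted threshold and none the adjusted one.

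Cdkn2d gave the interactions that did pass it, 1.98 in E vs C (limma adjusted P = 0.011) and 1.42 in F vs C (adjusted P = 0.026), in the muscle arrays whose slides are described above. For Lig1 the interaction was 0.62 in E vs C (limma adjusted P = 0.19) and 0.47 in F vs C (adjusted P = 0.15), for Orc2 it was −0.33 in E vs C (adjusted P = 0.23), and for E2f7 −0.36 in F vs C (adjusted P = 0.26), all past the unadjusted threshold only. E2f7 was not well above background on any of the 6 muscle arrays of that comparison. The part of slide in these values was not tested in the interaction itself.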

How the results depend on the processing

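Over 195 results on the 10 genes, 4829 of 5044 alternative values kept their side of the threshold, 86 lost and 119 gained the call, and 10 turned direction where one of the values was called. Among the 4829, 303 values changed sign while neither value was called. Mcm6 was between −2.73 and −1.86 in A vs G over 16 alternatives and between −2.74 and −1.89 in C vs G over 15. The counts of genes called that follow are over both tissues unless a tissue is named, and the cause of each shift was not tested. For most alternative fits the share of all genes called is not given, and with no filter more genes were tested. With muscle arrays alone that share rose from 12.7% to 21.2% in A vs G muscle and from 13.9% to 20.2% in C vs G muscle. The counts thus describe the fits and are not read as changes in the studied genes.

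In A vs G the count was 4, and it was 7 with no filter on dim genes, and 1 each with scan day and with the lymphocyte term. Slide as a block rested on 1 diabetic aorta, so its count is left out. It was 1 in A vs G aorta, against 2 with quantile normalization within tissue, 3 in the fit of all 42 arrays with 14 means and 2 with the term for slides 1, 3 and 11. In A vs G muscle it was 1, against 2 in the authors' log2 table, 5 with 14 means, 4 with the muscle arrays alone and 2 with the lymphocyte term. C vs A had 0, and 1 with the brightest probe of each gene, in aorta too. C vs G had 3, against 6 with 14 means, and C vs G muscle 1, against 2 with the processed signal, 2 in the authors' table, 2 with the brightest probe, 4 with 14 means and 3 with muscle alone. The scan-day fit of C vs G rested on 1 healthy aorta, so its count is left out.

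B vs C had 0, against 1 with an offset of 50, the processed signal, quantile within tissue, the authors' table, scan day or the slide term, and 2 with the brightest probe. B vs C aorta had 2, against 1 with the brightest probe and 0 with aorta alone, and muscle 0, against 1 with the lymphocyte term. D vs C had 0, against 1 with an offset of 50, a filter on 2 sets or the brightest probe, and 2 with slide as a random block or the lymphocyte term. D vs C aorta had 1, against 0 with 14 means, aorta alone or the slide term, and muscle 1, against 0 with the processed signal, quantile within tissue, 14 means or the slide term. E vs C had 1, against 0 with the processed signal, the authors' table, no tissue term, 14 means or slide as a random block, and 2 with the brightest probe or the lymphocyte term. E vs C muscle had 0, against 1 with an offset of 50, the processed signal, quantile within tissue or the slide term, and 2 in the authors' table, with the brightest probe, muscle alone or the lymphocyte term. F vs C had 2, against 1 with 14 means or the slide term, F vs C aorta 0, against 1 with the brightest probe, and muscle 2, against 1 with the processed signal, 14 means or the slide term. The 5 genes that differed between the tissues were 0 with slide as a block, 0 with the 6 healthy arrays alone and 3 with the lymphocyte term.

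With single arrays left out, the count was 2 to 5 in A vs G (aorta 1 to 3, muscle 1 to 4), 0 in C vs A, 3 to 6 in C vs G (aorta 2 to 4, muscle 1 to 5), 0 to 1 in B vs C (aorta 1 to 2, muscle 0), 0 to 2 in D vs C (0 to 1 in each tissue), 0 to 2 in E vs C (aorta 0 to 1, muscle 0 to 2), 2 to 3 in F vs C (aorta 0 to 1, muscle 1 to 2) and 5 to 6 between tissues. With the replicate number as a block, the counts were 5 in A vs G, where Mki67 also passed (limma adjusted P = 0.20), 4 in C vs G, where Ccna2 also passed (adjusted P = 0.21), and 6 between tissues, again with Ccna2 (adjusted P = 0.035), and no other count moved.

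Directions that turned with a call were those of Mcm2 in C vs G aorta (0.45 without healthy aorta 1 and −0.82 without healthy aorta 2), Rb1 in E vs C in the authors' table (−0.14, and −0.46 in muscle), Orc2 (−0.097) and Lig1 (0.16) in E vs C muscle and Cdkn2d (0.00093) and Lig1 (0.17) in F vs C muscle with the slide term. Between tissues Top2a was at −0.32 with quantile within tissue, Mki67 at −0.38, Top2a at −0.028, Mcm6 at −0.14 and Mcm8 at 0.097 with slide as a block, and Top2a at −0.088 and Ccna2 at −0.50 with the lymphocyte term. Slide as a fixed block could not be estimated for C vs A, C vs G, E vs C and F vs C. Ccnb1 and, in muscle, Top2a were near background, so differences in them were mostly not detectable.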
